A study of Mus musculus with 9 samples.

Results

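The genes described here had a low mean level in the periocular neural crest (pNC) and in the E14.5 cornea, where 1 of the 3 samples stood above the others, and a higher one in the E16.5 cornea. They were chosen by mean expression alone, in FPKM, a fragment count corrected for transcript length and for sample depth: a mean under 1 at E10.5, under 2 at E14.5, and at least 5 at E16.5, the last being at least 4 times the E14.5 mean. The rule was met by 27 of 19369 listed genes. Expression was measured by RNA-Seq of bulk tissue from wild-type C57BL/6 mouse embryos, with 3 samples per stage: pNC at E10.5 and cornea at E14.5 and E16.5. Each sample pooled eyes or corneas of several embryos. For the E10.5 samples the surface ectoderm, lens vesicle and optic cup were stripped away after dispase treatment, so the tissue that gives rise to the corneal epithelium is missing from the first stage, and the first stage and the removal of ectoderm cannot be told apart for an epithelial gene. In such samples, fewer cells of a type and less RNA per cell cannot be told apart either.

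The mouse cornea is covered by an epithelium derived from surface ectoderm, which is thin in the early fetus and becomes stratified later. Stratified epithelia are held together by desmosomes, whose cadherins (desmogleins and desmocollins) join neighbouring cells and anchor keratin filaments. Cells that leave the basal layer of such epithelia switch on further keratins, protease inhibitors, and enzymes of lipid and xenobiotic metabolism. Neural crest cells form the keratocytes of the stroma and the endothelium beneath the epithelium.

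Of the 19369 genes, 9761 had an E16.5 mean of at least 5 FPKM, 269 of these had an E10.5 mean under 1, and 38 of those also had an E14.5 mean under 2. The fold limit removed 11 of the 38. The other 231 of the 269 genes had already reached a mean of 2 FPKM at E14.5 and are referred to as the earlier-onset genes. The members lay on 12 chromosomes, and only 2 pairs lay within 500 kb of each other. *Dsg3* and *Dsg1b* were 98.1 kb apart, and *Ces1d* and *Capns2* were 264 kb apart. The median transcript length was 1727 bases for the members, 2755 for the earlier-onset genes and 2841 for all genes tested.

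Most members were weak genes even at E16.5. Their E16.5 means ran from 5.09 to 17.0 FPKM with a median of 7.01, and only 6 of the 27 reached 10 FPKM. For scale, the epithelial keratin *Krt5* had a mean of 2377 FPKM at that stage. The E14.5 means of the members ran from 0.06 to 1.97 FPKM with a median of 1.12, and the E10.5 means from 0 to 0.92 with a median of 0.16. These limits were set by the rule and are given as a description.

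**Figure D1:**
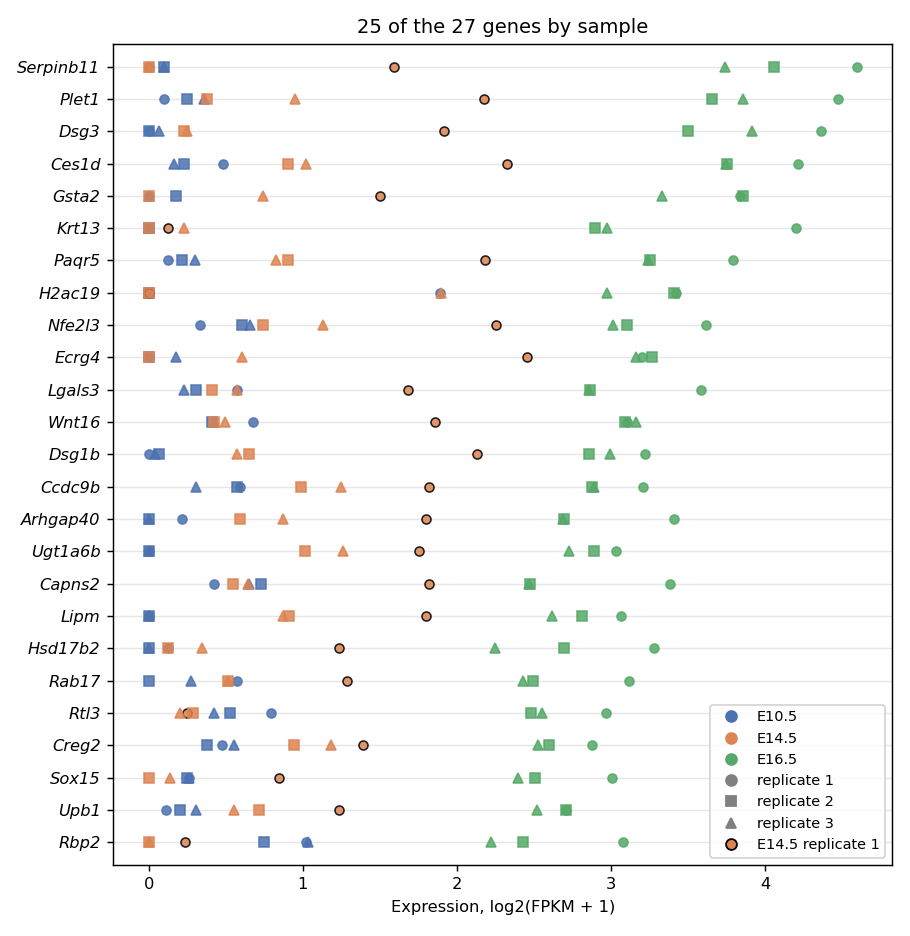
FPKM of 25 of the 27 genes in each of the 9 samples, on a log2(FPKM + 1) axis, ordered by E16.5 mean with the highest on top. Colours mark the stage and shapes the replicate, and E14.5 replicate 1 is outlined in black. All 3 E16.5 samples lie to the right of the E14.5 samples in all 25 genes drawn, and E14.5 replicate 1 lies to the right of the other E14.5 samples in 22.

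Not all of the members were silent before E16.5. All 27 were listed above 0 in at least 1 E14.5 sample, and 20 in all 3. At E10.5, *Krt13*, *Ugt1a6b* and *Lipm* were listed at 0 in all 3 samples, whereas 14 members were above 0 in all 3. E10.5 values that are not given gene by gene were under 1 FPKM. Many of these values rest on few reads: *Krt13*, *Sox15* and *Rbp2* had 3, 9 and 1 expected counts over the 3 E14.5 samples together, and the other 24 members had at least 10. Each member lay above every E14.5 sample in every E16.5 sample (27 of 27), which held for 14.8% of all genes tested. The rule used the means of both stages, so nothing is read from that count.

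*Krt13* had the steepest increase. It encodes a type I keratin of the upper layers of wet stratified epithelia, such as those of the oesophagus and conjunctiva. Its FPKM was 0 in all 3 E10.5 samples, 0.09, 0 and 0.17 in E14.5 replicates 1, 2 and 3, and 17.4, 6.45 and 6.85 in E16.5 replicates 1, 2 and 3 (mean 10.2 ± 6.19, SD, n = 3). Values of a stage are given in this order throughout. The E16.5 samples were all far above the rest, with replicate 1 well above the other two. Its log2 fold change from E14.5 to E16.5 was 6.86 (SE 0.72, edgeR adjusted p = 0.000573), and the E14.5 side of it rests on 3 counts. *Krt4*, the usual partner of *Krt13*, stayed below the FPKM limit of the rule at E16.5, with 3.20, 5.38 and 2.57 FPKM. Of 52 keratin genes, 19 were tested between E14.5 and E16.5, of which 13 rose and 0 fell, beside 6.26% and 5.47% of all genes tested, shares that stand as background for each gene list between these stages. The median log2 fold change of the keratins was 2.15 against -0.02 for all genes. *Krt13* was the only keratin among the members, and the 13 include it. In each list, members count as higher because the rule chose them so. The basal keratins *Krt5*, *Krt14* and *Krt15* already had E14.5 means of 600.2, 84.4 and 241.6 FPKM.

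The desmosomal cadherins *Dsg3* and *Dsg1b* were also among the members. *Dsg3* encodes a desmoglein of the lower layers of stratified epithelia. Its FPKM was 0, 0 and 0.05 at E10.5, 2.78, 0.17 and 0.19 at E14.5, and 19.6, 10.3 and 14.04 at E16.5. *Dsg1b* encodes a desmoglein of the upper layers, and its FPKM was 0, 0.05 and 0.03 at E10.5, 3.38, 0.57 and 0.49 at E14.5, and 8.30, 6.25 and 6.95 at E16.5. In both genes E14.5 replicate 1 stood apart from the other E14.5 samples but below all E16.5 samples. From E14.5 to E16.5 the log2 fold change was 3.97 (SE 0.67, adjusted p = 0.00175) for *Dsg3* and 2.44 (SE 0.53, adjusted p = 0.00590) for *Dsg1b*. Without E14.5 replicate 1 these rose to 6.49 and 3.91. The *Dsg1b* estimate may share reads with the closely related *Dsg1a*, which was itself at 12.4, 2.66 and 3.14 FPKM at E14.5 and at 37.8, 26.99 and 24.6 at E16.5. The median log2 fold change of 30 tested genes of desmosomes and tight junctions was 1.30. Of these, 17, among them *Dsg3* and *Dsg1b*, had risen by E16.5 and 2 had fallen. Not every desmosomal cadherin did so: *Dsc3* had 14.46, 43.0 and 36.7 FPKM at E14.5 and 23.5, 17.0 and 17.5 at the later stage, and its log2 fold change of -0.54 did not pass the test (adjusted p = 0.195).

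*Serpinb11*, a member of the clade B serpin family whose members mostly inhibit proteases inside cells, had the highest E16.5 mean of all members. Its FPKM was 0, 0.07 and 0.07 at E10.5, 2.02, 0 and 0 at E14.5, and 23.2, 15.6 and 12.3 at E16.5 (mean 17.0 ± 5.55, SD, n = 3). All of its 30 expected counts at E14.5 came from replicate 1. The log2 fold change from E14.5 to E16.5 was 4.81 (SE 0.73, adjusted p = 0.00115), and without that sample it has no fixed size. *Capns2*, a small regulatory subunit of the calpain proteases, reached 9.43, 4.55 and 4.53 FPKM at E16.5 from 2.52, 0.46 and 0.56 at E14.5. Of 31 epithelial proteases and inhibitors tested, 12, among them *Serpinb11*, were higher and 1 lower at E16.5, with a median log2 fold change of 0.80.

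Several members encode enzymes or carriers of small molecules: *Ces1d*, *Gsta2*, *Ugt1a6b*, *Lipm*, *Hsd17b2*, *Upb1* and *Rbp2*. *Ces1d*, a carboxylesterase that cleaves esters and lipids, had 0.40, 0.17 and 0.12 FPKM at E10.5, 4.01, 0.87 and 1.03 at E14.5, and 17.6, 12.5 and 12.4 at E16.5. *Gsta2*, an alpha class glutathione S-transferase, had 0, 0.13 and 0 FPKM at E10.5, 1.83, 0 and 0.67 at E14.5, and 13.3, 13.5 and 9.07 at E16.5. Both were clearly separated between the cornea stages, with log2 fold changes of 3.01 (SE 0.44, adjusted p = 0.00103) and 4.01 (SE 0.57, adjusted p = 0.000888), or 4.04 and 5.22 without E14.5 replicate 1. Reads of *Gsta2* and *Ces1d* may be divided with near-identical relatives, although *Gsta1* was at or below 0.33 FPKM in every sample. *Gsta3* had 1.79, 2.13 and 2.92 FPKM at E14.5 and 2.22, 3.12 and 2.49 at E16.5, and did not pass the test (adjusted p = 0.457).

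*Ugt1a6b*, which encodes a UDP-glucuronosyltransferase, was listed at 0 in all E10.5 samples and had 2.37, 1.02 and 1.40 FPKM at E14.5 and 7.16, 6.39 and 5.62 at E16.5. It shares exons with *Ugt1a6a*, which also rose, from 3.85, 1.33 and 1.86 to 5.97, 3.49 and 4.35 FPKM (log2 fold change 1.13, SE 0.37, adjusted p = 0.0425), so the division between them is uncertain. *Lipm*, a lipase of the epidermal granular layer, was also at 0 at E10.5, with 2.48, 0.88 and 0.83 FPKM at E14.5 and 7.35, 6.02 and 5.12 at E16.5. *Hsd17b2*, which oxidises oestradiol and testosterone, had 1.35, 0.09 and 0.27 FPKM at E14.5 and 8.69, 5.46 and 3.74 at E16.5. *Upb1*, an enzyme of pyrimidine breakdown, was steadier at E16.5, with 5.52, 5.54 and 4.72 FPKM after 1.35, 0.64 and 0.47 at E14.5. Of 27 genes of skin barrier lipid metabolism tested, 9 were higher and 1 lower at E16.5 than at E14.5. Of 56 genes of detoxification, retinoid and alcohol metabolism, 15 were higher and 7 lower. The 9 include the members *Hsd17b2* and *Lipm*, and the 15 include *Ces1d*, *Gsta2* and *Rbp2*. The median log2 fold changes of the lists, 0.22 and 0.23, were well below those of the keratins and the junctional genes.

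*Rbp2*, a cellular retinol-binding protein best known from the small intestine, had a different course. Its FPKM was 1.03, 0.68 and 1.05 at E10.5, 0.18, 0 and 0 at E14.5, and 7.44, 4.38 and 3.66 at E16.5. The E14.5 samples were thus the lowest of the 9, with 1 expected count in all, and *Rbp2* fell by 3.56 on the log2 scale from E10.5 to E14.5 (SE 0.91, adjusted p = 0.00684) before it rose by 6.16 (SE 0.68, adjusted p = 0.000388). Its only E14.5 count was in replicate 1, so neither fold has a fixed size without that sample. *Rtl3*, a gene derived from a retrotransposon Gag sequence, behaved likewise. Its FPKM was 0.73, 0.44 and 0.34 at E10.5, 0.19, 0.22 and 0.15 at E14.5, and 6.80, 4.59 and 4.87 at E16.5. It fell by 1.42 on the log2 scale at first (SE 0.41, adjusted p = 0.0134) and then rose by 4.98 (SE 0.32, adjusted p = 0.000100). The call of its fall was lost without E10.5 replicate 1, at a log2 fold change of -1.05. In limma on log2(FPKM + 1) neither fall was called, at -0.86 for *Rbp2* and -0.33 for *Rtl3*. *Rbp2* and *Rtl3* were the only 2 of the 27 members whose mean dropped between the first and second stage.

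Secreted and surface proteins made up another group. *Plet1*, a surface glycoprotein of the placenta and of hair follicle and other epithelia, had 0.07, 0.19 and 0.28 FPKM at E10.5, 3.52, 0.30 and 0.93 at E14.5, and 21.2, 11.6 and 13.5 at E16.5. *Wnt16*, a secreted Wnt ligand, had 0.60, 0.33 and 0.34 FPKM at E10.5, 2.62, 0.34 and 0.41 at E14.5, and 7.60, 7.52 and 7.96 at E16.5. *Ecrg4*, the precursor of a secreted peptide, had 0, 0 and 0.13 FPKM at E10.5, 4.48, 0 and 0.52 at E14.5, and 8.20, 8.63 and 7.94 at E16.5. *Wnt16* and *Ecrg4* had the most even E16.5 samples of all members and rather uneven E14.5 samples. Their log2 fold changes from E14.5 to E16.5 were 2.94 (SE 0.52, adjusted p = 0.00216) and 2.47 (SE 0.73, adjusted p = 0.0239), and they were 4.48 and 5.05 without E14.5 replicate 1. The *Ecrg4* call was lost when E14.5 replicate 3 or any E16.5 sample was left out and in DESeq2, at log2 fold changes of 2.05 to 2.50. *Lgals3*, the carbohydrate-binding galectin-3 of surface epithelia, had 2.21, 0.33 and 0.49 FPKM at E14.5 and 10.97, 6.27 and 6.23 at E16.5. *Paqr5*, a membrane progestin receptor, had 3.53, 0.87 and 0.77 FPKM at E14.5 and 12.8, 8.52 and 8.42 at E16.5. The E16.5 levels of *Lgals3* and *Paqr5* showed the same order, with replicate 1 on top and replicates 2 and 3 nearly equal. *Creg2*, a secreted glycoprotein, was the least uneven at E14.5 among those with replicate 1 on top, with 1.62, 0.92 and 1.27 FPKM, and had 6.34, 5.04 and 4.75 at E16.5.

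The members included transcription factor genes. *Nfe2l3*, a cap'n'collar leucine zipper factor, had 0.26, 0.52 and 0.58 FPKM at E10.5, 3.76, 0.67 and 1.19 at E14.5, and 11.2, 7.59 and 7.07 at E16.5. *Sox15*, an HMG box factor related to *Sox2*, had 0.20, 0.19 and 0.20 FPKM at E10.5, 0.80, 0 and 0.10 at E14.5, and 7.04, 4.67 and 4.26 at E16.5. From E14.5 to E16.5 the log2 fold changes were 2.37 for *Nfe2l3* (SE 0.46, adjusted p = 0.00350) and 4.26 for *Sox15* (SE 0.60, adjusted p = 0.000888). Without E14.5 replicate 1 they were 3.36 and 6.57, the latter resting on 1 expected count at E14.5. Neither gene is in the list of transcription factors of epithelial differentiation, of which 52 were tested, 20 were higher and 2 lower at E16.5.

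Of the remaining members, *Arhgap40*, a predicted GTPase-activating protein, had 2.48, 0.51 and 0.83 FPKM at E14.5 and 9.61, 5.48 and 5.45 at E16.5. *Rab17*, a small GTPase of polarised epithelial traffic, had 1.44, 0.43 and 0.43 FPKM at E14.5 and 7.68, 4.64 and 4.37 at E16.5. *Ccdc9b*, a coiled-coil protein, had 2.52, 0.98 and 1.37 FPKM at E14.5 and 8.21, 6.33 and 6.4 at E16.5. *H2ac19* encodes a replication-dependent histone H2A with near-identical copies, so its value is uncertain. It had 2.70, 0 and 0 FPKM at E10.5, 0, 0 and 2.72 at E14.5, and 9.73, 9.63 and 6.84 at E16.5. It entered the group with 1 positive sample at each earlier stage, so that without E14.5 replicate 3 its fold has no fixed size, and its call from E14.5 to E16.5 (log2 fold change 3.41, SE 1.02, adjusted p = 0.0251) was lost without E14.5 replicate 2, without E16.5 replicate 1 or 2, and in DESeq2.

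Promoter windows were examined for letters that the members shared. A RefSeq window from 250 bases before to 50 bases after the start was at hand for 20 of the 27 members (21 windows, *Krt13* having 2). TGANTCA, the site bound by AP-1 factors, read on both strands, was present in 23.8% of the members' windows, compared with 9.86% for the earlier-onset genes, 4.54% for all genes with an E16.5 mean of at least 5 FPKM and 7.81% of all 32851 windows. The 5 windows belonged to *Arhgap40*, *Krt13*, *Plet1* and *Serpinb11*. TATAAA was present in 19% of the members' windows (*Gsta2*, *Nfe2l3*, *Plet1* and *Rbp2*) and in 13.6% of all windows, and CAGGAAG, an Ets site, in 19% and 13.3%, with 18.8% for the earlier-onset genes. The Kruppel-like site CCACNCCC was in 23.8% and 17.6%, with 23.5% for the genes of at least 5 FPKM at E16.5, the last being close to the members' share. The C/EBP site TTGCNNAA was in 9.52% and 10.8%, the E-box CANNTG in 81.0% and 72.3%, and the grainyhead-like site AACNGGTT in 0% and 2.09%. In the genes of at least 5 FPKM at E16.5, TATAAA was in 6.6%, CAGGAAG in 12%, TTGCNNAA in 8%, CANNTG in 61.9% and AACNGGTT in 1.88%. With 21 windows the members' shares rest on a few genes, and a match of letters is not a bound site. The sets also differed in their share of the bases G and C. Its median was 52.67% in the members' windows and in all windows, and 57.67% in those of the earlier-onset genes. In the genes of at least 5 FPKM at E16.5 it was 61.33%. The part of base composition in the shares of matches was not tested. The 200 bases before the start are shown for the 3 genes whose window held TGANTCA and overlapped no annotated exon, 5′ to 3′ on the gene's strand, from RefSeq on GRCm38.p6. Capitals mark TGANTCA in each, CAGGAAG in *Arhgap40*, and TTGCNNAA (on the other strand) and TATAAA in *Plet1*.
Krt13, chr11:100121567-100121766, minus strand: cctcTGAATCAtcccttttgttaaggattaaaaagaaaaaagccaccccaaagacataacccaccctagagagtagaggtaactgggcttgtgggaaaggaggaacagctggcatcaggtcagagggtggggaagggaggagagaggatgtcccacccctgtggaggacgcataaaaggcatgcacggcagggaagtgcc
Plet1, chr9:50494325-50494524, plus strand: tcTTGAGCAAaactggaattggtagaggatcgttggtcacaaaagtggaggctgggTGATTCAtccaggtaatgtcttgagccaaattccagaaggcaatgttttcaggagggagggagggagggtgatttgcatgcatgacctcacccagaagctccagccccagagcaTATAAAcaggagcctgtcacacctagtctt
Arhgap40, chr2:158512596-158512795, plus strand: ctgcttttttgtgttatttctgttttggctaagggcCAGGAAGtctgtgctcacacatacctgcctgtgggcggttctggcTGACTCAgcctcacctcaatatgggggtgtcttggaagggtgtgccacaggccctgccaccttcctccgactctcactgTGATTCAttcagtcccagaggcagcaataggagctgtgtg
In the *Krt13* window shown, at its upstream start, the match began 196 bases before the start, in *Plet1* 144 bases, and in *Arhgap40* 119 and 40 bases. The other *Krt13* window, which is not shown because it lies inside the gene, held TGANTCA 183 and 34 bases before its start. The TATAAA of *Plet1* began 30 bases before its start. At E14.5 the 3 genes differed in level: *Krt13* had 3 expected counts over the E14.5 samples, and *Plet1* and *Arhgap40* had 76.9 and 68.0.

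From E14.5 to E16.5, all 27 members were called higher and 0 lower, beside 6.26% and 5.47% of the 14771 genes tested. From E10.5 to E16.5 all 27 were again called higher and 0 lower, beside 19.4% and 15.4% of the genes tested. Both counts follow from the rule. All 27 members passed the filter on low counts, which they could do through the E16.5 samples alone. The members' log2 fold changes from E14.5 to E16.5 ran from 2.14 to 6.86 with a median of 2.999. Without E14.5 replicate 1 all 27 were still called. In the 25 members that kept E14.5 counts the median log2 fold change was then 3.91 against 2.94 with all samples, and the fold was over 1.5 times as large in 18. Without E16.5 replicate 1, 25 were called, *H2ac19* and *Ecrg4* being lost.

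From E10.5 to E14.5, 17 members were called higher and 2 lower, beside 13.6% and 7.97% of the genes tested. The rule bounded both means, so these counts too are a description. *Creg2* (log2 fold change 1.69, SE 0.26, adjusted p = 0.000295) and *Paqr5* (3.39, SE 0.71, adjusted p = 0.00221) were among those already higher at E14.5. *Ugt1a6b* and *Lipm* were as well (adjusted p = 0.0000682 and 0.000363), but with no count at E10.5 the fold has no fixed size. Those not called were *Capns2*, *H2ac19*, *Krt13*, *Lgals3*, *Rab17*, *Serpinb11*, *Sox15* and *Wnt16*. Every E14.5 sample lay above every E10.5 sample in 14 members, against 31.4% of all genes tested. The 17 dropped to 10 without E14.5 replicate 1 and to 11 without E10.5 replicate 1.

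The 3 E14.5 samples differed from each other in these genes. Replicate 1 was the highest in 24 of 27 members, against 40.2% of all genes tested, the exceptions being *Krt13* and *H2ac19*, which were highest in replicate 3, and *Rtl3*, which was highest in replicate 2. It was at least 2 times the mean of the other samples in 22 members, against 5.56% of all genes tested. The median member had 2.37 FPKM in replicate 1, 0.34 in replicate 2 and 0.52 in replicate 3. As a percentage of the E16.5 mean, the medians were 28.2%, 4.52% and 7.08%. Replicate 1 reached 1 FPKM in 22 members, replicate 2 in 1 and replicate 3 in 6. With 1 library against the other two there is no replicate of the difference, so no test was made.

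**Figure D2:**
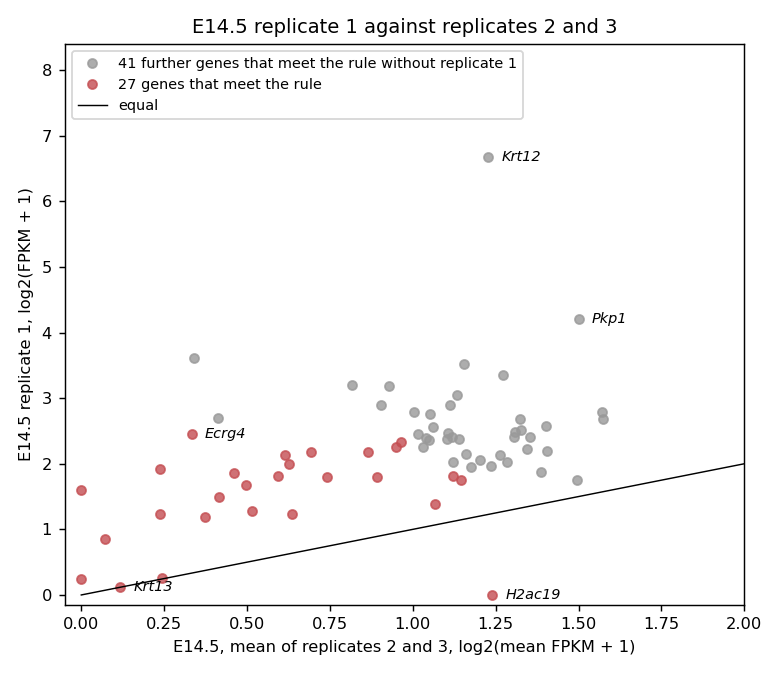
Each point is a gene, with E14.5 replicate 1 on the vertical axis and the mean of E14.5 replicates 2 and 3 on the horizontal axis, both as log2(FPKM + 1); the axes have different ranges. Red points are the 27 genes and grey points the 41 further genes that meet the rule when replicate 1 is left out. The grey points lie above the line of equality through the way they were chosen, *Krt12* farthest, with 101.5 FPKM in replicate 1 against 0.62 and 2.06, and most red points lie above it as well.

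The ratio of replicate 1 to the mean of replicates 2 and 3 had a median of 4.30 over the 25 members in which it could be formed. Among the members with at least 10 counts at E14.5 it was 17.2 in *Ecrg4*, 15.4 in *Dsg3*, 7.50 in *Hsd17b2*, 6.99 in *Wnt16* and 6.38 in *Dsg1b*. It was only 1.03 in *Rtl3*, 1.48 in *Creg2*, 1.96 in *Ugt1a6b* and 2.15 in *Ccdc9b*, and replicate 1 was at 0 for *H2ac19*.

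This order was not particular to the members. In the 231 earlier-onset genes, replicate 1 was the highest in 89.6% and at least 2 times the others in 53.2%. Those genes were chosen by an E14.5 mean that includes replicate 1, so their values in it are partly fixed by the choice. *Krt12*, *Pkp1* and *Serpinb5*, for example, reached the mean of 2 FPKM only through that sample. The median log2 ratio of replicate 1 to the other samples (with 0.1 FPKM added) was 1.97 in the members, 1.04 in the earlier-onset genes and 0.01 in all genes tested. The corneal epithelium markers had a summed level of 2733 FPKM in replicate 1, against 980.4 and 1107 in replicates 2 and 3, and 18 of the 20 were highest in replicate 1. Keratocyte markers summed to 8301, 3936 and 5922 FPKM, with 14 of 19 highest in replicate 1, and mast cell markers to 150.4, 41.8 and 40.1 FPKM, with 9 of 11. Vascular endothelium markers went the other way, with 97.0, 156.7 and 166.1 FPKM and 0 of 15 highest in replicate 1. The part of these differences in the members' values was not tested.

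Of the 2862 genes called higher in the E16.5 cornea than in the pNC, the median gene had covered 85.4% of the way from the E10.5 to the E16.5 mean in E14.5 replicate 1, on the log2(FPKM + 1) scale, against 59.9% and 61.5% in replicates 2 and 3. For the 2282 genes that were lower at E16.5, the values were 69.9%, 48.0% and 52.5%. In both directions replicate 1 was thus the E14.5 sample nearest to E16.5. The members were far behind, at 48.6%, 5.2% and 17.3%, as the limits of the rule require.

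Epithelial genes differed in how far E14.5 replicate 1 stood out. Over the 20 corneal epithelium markers, the median log2 ratio of replicate 1 to the others was 1.15, and 11 of the 20 were at least 2 times as high in it. *Epcam*, an epithelial adhesion molecule, had 41.4, 38.0 and 36.5 FPKM in replicates 1, 2 and 3. *Trp63*, the basal cell transcription factor, had 46.2, 39.8 and 38.0 FPKM, and *Cdh1* (E-cadherin) 58.1, 35.5 and 35.1. *Krt5*, the basal keratin, differed more, with 1042, 342.9 and 415.6 FPKM. After division by *Epcam* or *Trp63* in the same sample, replicate 1 was still the highest in 24 members and at least 2 times the others in 21. After division by *Cdh1* these counts were 23 and 19, and after division by *Krt5* 19 and 10. The choice of these 4 genes was made after the data had been seen.

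**Figure D3:**
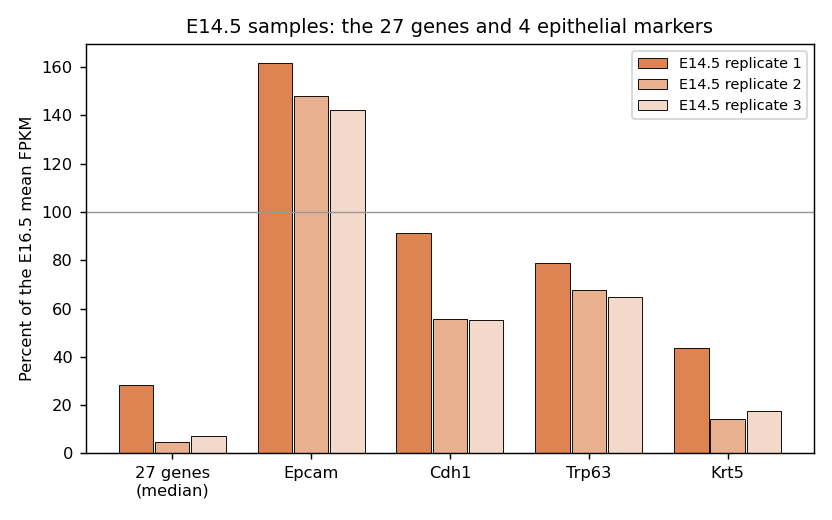
Level in each E14.5 sample as a percentage of the E16.5 mean, for the median of the 27 genes and for 4 epithelial marker genes; each bar is 1 sample and the grey line marks 100%. *Epcam* stands above its E16.5 mean in all 3 samples (142% to 162%), whereas the median of the 27 genes is 28.2% in replicate 1 4.52% in replicate 2 and 7.08% in replicate 3, and *Krt5* is at 43.9%, 14.4% and 17.5%.

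E14.5 replicate 1 also set how many genes met the rule. Without it the rule was met by 68 genes, the 27 members and 41 others. These were selected by leaving that sample out, so a high value in it is fixed by the choice: in 39 of the 41, all but *Aspn* and *Tmem200a*, it was at least 2 times the mean of the other E14.5 samples. The cornea-specific keratin *Krt12* was the strongest of them, with 101.5, 0.62 and 2.06 FPKM at E14.5 and 989.7, 652.7 and 592.1 at E16.5. The stress and wound keratin *Krt6a* had 9.23, 1.16 and 1.67 FPKM at E14.5 and 214.2, 97.3 and 124.7 at E16.5, and the desmosomal plaque gene *Pkp1* 17.5, 1.83 and 1.83 and then 91.5, 63.4 and 63.8. The transcription factor genes *Ehf*, *Grhl1* and *Ovol1* and the serpin gene *Serpinb5* joined as well. In total 12 of the 41 were in a list of gene roles, among them also *Krtdap*, *S100a14*, *Adh7*, *Hopx* and *Ocln*. The others, such as *Ndufa4l2*, *Papln* and *Myh2*, were in none. The lists were chosen with these data known and no share of all genes is set beside the count, so nothing is read from it. In contrast, the rule was met by 17 genes without E14.5 replicate 2 (16 of them members) and by 19 without replicate 3 (19 members).

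The E16.5 samples also had an order. Replicate 1 was the highest in 23 members, against 40.4% of all genes tested, replicate 2 in 3 and replicate 3 in 1. The median member stood at 129% of its E16.5 mean in replicate 1, 87.9% in replicate 2 and 83.0% in replicate 3. The median coefficient of variation over the 3 samples was 25.4% in the members, 14.9% in the earlier-onset genes and 6.52% in all genes with an E16.5 mean of at least 5 FPKM. It was 60.5% in *Krt13*, 45.8% in *Capns2* and 42.1% in *Hsd17b2*, and 3.05% in *Wnt16*, 4.22% in *Ecrg4* and 8.89% in *Upb1*. Without replicate 1 the median of the members was 5.89%, so most of the spread lay between that sample and the other two. Corneal epithelium markers summed to 8834 FPKM in replicate 1 against 6146 and 6240 in replicates 2 and 3, and 18 of the 20 were highest in it. Keratocyte markers summed to 14036, 17989 and 16376 FPKM. The part of this difference was not tested. The rule was met by 21 genes without E16.5 replicate 1, of which 15 were members. Without replicate 2 or without replicate 3, all 27 members still met it. Some members thus entered through a high value in replicate 1, so its rank and the spread among the members are partly fixed by the choice.

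**Figure D4:**
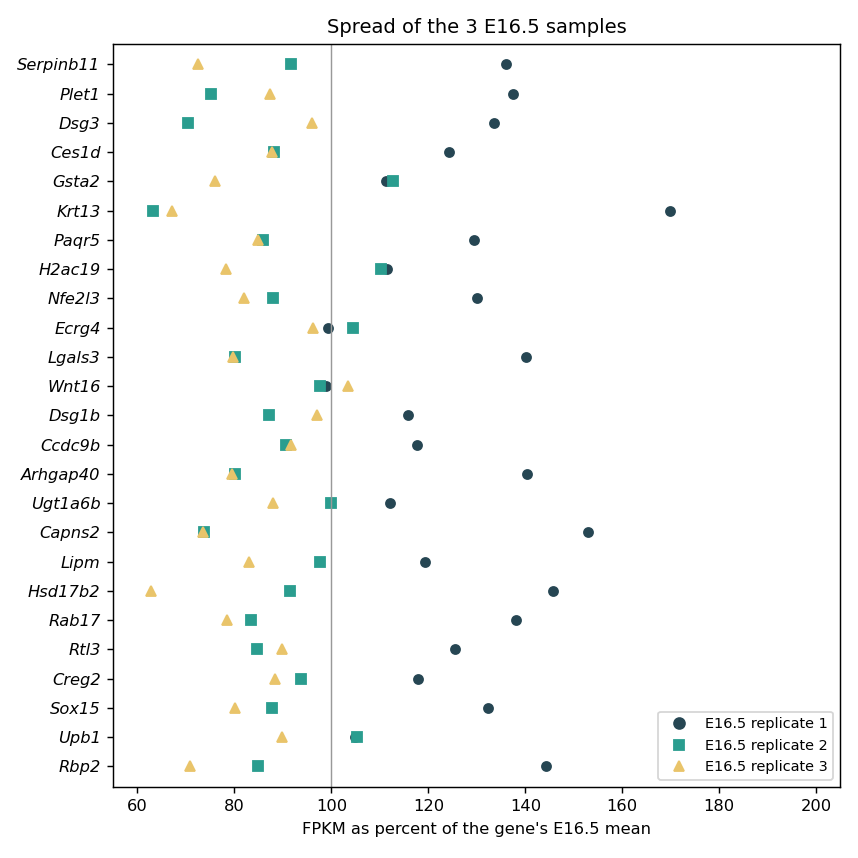
FPKM of 25 of the 27 genes in the 3 E16.5 samples as a percentage of the gene's own E16.5 mean, ordered by that mean with the highest on top; the grey line marks 100%. Replicate 1 is the highest in 21 of the 25 and reaches 170% in *Krt13*, whereas *Wnt16* and *Ecrg4* stay close to the line in all 3 samples.

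Several members stood close to a limit of the rule. At E10.5, *Rbp2* (0.92) and *H2ac19* (0.90) were just inside the limit of 1 FPKM, and *Mir3072* (1.54) and *Wfikkn2* (1.70) just outside. At E14.5, *Ces1d* (1.97), *Nfe2l3* (1.87) and *Paqr5* (1.72) were just inside the limit of 2 FPKM, and *Serpinb5* (2.04), *Kazald1* (2.10) and *Ehf* (2.16) just outside. At E16.5, *Rbp2* (5.16) and *Upb1* (5.26) were just inside the limit of 5 FPKM, and *Ly6g6e* (4.84), *Upk3b* (4.77) and *Mt3* (4.74) just outside. For the fold between the cornea stages, *Ugt1a6b* (4.002), *Creg2* (4.23) and *Ccdc9b* (4.30) were just inside, and *Hopx* (3.997), *Adgrg6* (3.89) and *Tmem200a* (3.66) just outside.

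The members were set beside marker lists of the tissues that a corneal dissection could hold. From E14.5 to E16.5, 14 of 20 corneal epithelium markers and 12 of 19 keratocyte markers were higher and 0 lower, beside 6.26% and 5.47% of all genes tested. Of 17 corneal endothelium markers, 2 were higher and 3 lower. With 0 higher, 13 of 15 vascular endothelium and 9 of 12 neutrophil markers were lower. So were 5 of 13 erythroid, 4 of 15 retina and pigment cell, 1 of 22 macrophage and 1 of 5 lens markers. With 0 lower, 4 of 11 mast cell, 4 of 14 Schwann cell and 3 of 9 lymphocyte and dendritic cell markers were higher. Skeletal muscle markers had 3 higher and 2 lower of 26. Of the markers of eyelid epidermis and hair follicle, 9 of 13 tested were higher, and their summed level was 45.2 to 86.7 FPKM at E14.5 and 144.7 to 208.8 at E16.5. *Krtdap*, a gene of differentiating epidermis, was among them, and the epidermal keratins *Krt1* and *Krt10* had means of 3.63 and 3.08 FPKM at E14.5 and 6.10 and 5.97 at E16.5. Of conjunctiva and goblet cell markers, a list that holds *Krt13*, 4 of 9 tested were higher, at sums of 153.2 to 238.7 and 321.0 to 489.4 FPKM. Of the 15 genes of that list with values, 4 (*Muc5ac*, *Muc5b*, *Clca1* and *Foxa3*) were listed at 0 in all E16.5 samples, and the others were not. The share of any of these tissues in the members' values was not tested. Cornified envelope genes, of which 25 were tested, were higher in 17 and lower in 3, and surface mucin genes in 8 and 1 of 15, and neither list held a member. The ion and water transport list had 8 higher and 1 lower of 34, and the antimicrobial and antigen presentation list 8 and 8 of 35.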

How the data were processed

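RNA-Seq was available for 9 samples, 3 each of pNC at E10.5 and cornea at E14.5 and E16.5, grouped by their labels. The authors filtered reads, used Bowtie 2, HISAT and GRCm38 for mapping and RSEM for quantification, and versions are not given in the sources used here. The deposited files give, for each gene, RSEM's expected count without normalization, and its transcript length. The deposited FPKM values were scaled by the authors to transcript length and to the fragments mapped in the sample. Genes missing from a sample were taken as 0. Samples held between 8745161 and 9069023 expected counts, so counting error matters chiefly for rare transcripts such as the members before E16.5. Nothing in the labels says whether the replicates of a stage shared a litter or a dissection day, and p-values measure the spread between these pools.

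The rule for members was applied to stage means of FPKM. The members and all gene lists were chosen with earlier results of these data known. All members enter the counts and summaries, and 25 of the 27 are named, since 2 are not reported here. Other genes were named as list members, as neighbours of a limit or as genes that met the rule without E14.5 replicate 1. Symbols and coordinates came from RefSeq (GRCm38.p6). The authors' NOISeq screen was not repeated here, since the tool was not installed. Instead, expected counts were rounded, filtered with filterByExpr by stage, scaled with TMM, and fitted for all 9 samples together with edgeR 4.0.16 (quasi-likelihood test) in R 4.3.3. A gene counted as called if its p, adjusted by Benjamini-Hochberg over all genes tested, was under 0.05 and its log2 fold change at least 1 in either direction. The SE of a log2 fold change was taken as its size divided by the root of F. All adjusted p-values in the text are of this fit. Tested on simulated counts for E16.5 against E14.5 with 14388 genes, the fit called 50 of 50 genes changed 4-fold and 50 of 50 changed 8-fold, and 1 unchanged gene. How well it calls genes with E14.5 counts as low and uneven as those of the members was not tested separately. Alternatives were DESeq2 1.42.0 and limma 3.58.1 on log2(FPKM + 1) or log2(FPKM + 0.1). Further alternatives were other scalings, no filter, a replicate block and each sample left out. Over all stages, same-numbered samples did not deviate together on average (mean correlation -0.02 over 9 pairs, from -0.23 to 0.25). The 18 other pairs had a mean of 0.01. Between the cornea stages the same-numbered pairs were all positive, at 0.25 for replicate 1, 0.12 for replicate 2 and 0.06 for replicate 3. The other cornea pairs ran from -0.21 to 0.11. The labels give no pairing, so the numbers were not taken as pairs in the main fit. Counts per replicate, summaries and promoter searches were made in Python 3.11.15 with pandas 2.3.3 and numpy 2.4.6, and plots with matplotlib 3.10.9.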

Additional observations from a re-analysis of the deposited data

How the results depend on the processing

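The number of genes that met the rule moved with several limits: it was 27 as given, 56 with stage medians in place of means, 6 with an E16.5 mean of at least 10 FPKM, 11 with a fold of at least 8, and 8 with an E10.5 mean under 0.5 and an E14.5 mean under 1. It was 37 with FPKM divided by the TMM factors and 38 with a fold of at least 2, so membership also depended on the scaling. Leaving out a sample gave 17 (without E14.5 replicate 2) to 68 (without E14.5 replicate 1) genes. Of the 27 members, 25 to 27 were called higher at E16.5 than at E14.5 and 26 to 27 higher than at E10.5 under all alternatives. For E16.5 against E14.5, 9 of 351 gene values lost the call, all of them in *H2ac19* or *Ecrg4*, and none turned in direction. The 17 members called higher at E14.5 than at E10.5 were 6 in limma on log2(FPKM + 1), where a pseudocount of 1 exceeds most E10.5 and many E14.5 values, 19 in DESeq2, and 10 (without E14.5 replicate 1) to 20 (without E14.5 replicate 2) when a sample was left out. With the replicate block the 3 counts were 27, 27 and 19, and the labels do not say that the numbers pair the samples. The median coefficient of variation of the E16.5 samples was 24.4% after TMM scaling and 5.89% to 27.4% with a sample left out, the lowest being without replicate 1. With library totals in place of TMM, the split of all genes between E16.5 and E14.5 changed from 924 higher and 808 lower to 731 and 1099, while all 27 members stayed higher. Depth limits the members most at E14.5 and E10.5, where *Krt13*, *Sox15* and *Rbp2* had 3, 9 and 1 counts over the E14.5 samples.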
